A study of Mus musculus with 3 samples.

Results

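Antibody heavy and light chains end in constant regions, and 10 genes were taken here that are named for that end of the molecule or for the chain that links it. They are the heavy-chain genes Ighm, Ighd, Igha, Ighg1, Ighg2b, Ighg2c and Ighg3, the light-chain genes Igkc and Iglc2, and Jchain, and they were chosen by name from the 31054 features listed, not by their values. The lung was profiled by droplet single-cell RNA sequencing in 3 libraries with 1 library per group. The first came from non-irradiated wild-type mice (controls), the second from irradiated wild-type mice, and the third from irradiated conditional knockout mice that also received a drug. The deleted gene, the driver of the deletion, the drug, the radiation dose, the time after irradiation, the age and the number of mice are named by no label here. The knockout and the drug occur in the same library, so they cannot be told apart, and no group has a replicate. Values are therefore given per library, with exact 95% intervals that cover counting error only, and no test between groups was possible.

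A B cell joins variable segments of a heavy and a light chain, and a naive B cell makes IgM and IgD from 1 rearranged heavy-chain gene by alternative processing of its transcript. Class switching then cuts out the DNA between the variable region and a downstream constant gene, so that the same variable region is made as IgG or IgA. Plasma cells secrete antibody in bulk, and the J chain joins secreted IgM and IgA into polymers, which epithelia can carry across to mucosal surfaces such as those of the airways.

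The 7 heavy-chain genes lie on the minus strand of mouse chromosome 12 (GRCm38), in the order of switching. Ighm spans chr12:113418558-113422730 and Ighd chr12:113406604-113416324. They are followed by Ighg3 at chr12:113356224-113361232, Ighg1 at chr12:113325240-113330523, Ighg2b at chr12:113302965-113307933, Ighg2c at chr12:113285325-113288932 and Igha at chr12:113254830-113260236. Igkc lies at chr6:70726435-70726966, Iglc2 at chr16:19198396-19200351 and Jchain at chr5:88519809-88527891. The genes that join the J chain differ from the IgG genes at the end of the secreted heavy chain. The last 57 coding bases, stop codon included, are shown 5′ to 3′ for the genes that led in the cells described below, from the GENCODE transcripts of GRCm38, with capitals for a cysteine codon just before the final residue.
Igha: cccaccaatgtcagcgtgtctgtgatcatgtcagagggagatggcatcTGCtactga
Ighm: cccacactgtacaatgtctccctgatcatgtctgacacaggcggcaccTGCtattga
Ighg2b: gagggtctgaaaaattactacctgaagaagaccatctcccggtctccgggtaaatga
Ighg2c: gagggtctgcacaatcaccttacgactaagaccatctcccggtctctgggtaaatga
Of 14 heavy-chain transcripts examined, 2 carried that codon, the secreted forms of Igha and Ighm. This tailpiece cysteine is known to bond with the J chain. The 3′ counts do not separate secreted from membrane forms.

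After filters, 13091 cells remained in the non-irradiated library, 5805 in the irradiated wild-type library and 9886 in the knockout library, with medians of 4899, 5706 and 6071 UMIs (unique molecular identifiers, counted as molecules). The irradiated wild-type library held cells of both sexes: 1595 of its cells had Y-linked and no Xist transcripts, against 1 in the non-irradiated and 27 in the knockout library, so results are also given for female-type cells. The libraries shared 28, 46 and 25 cell barcodes in the 3 pairs. B cells were taken as cells with at least 2 Cd79a UMIs (Cd79a is part of the antigen receptor) and fewer than 10 Jchain UMIs. They numbered 1376 in the non-irradiated, 540 in the irradiated wild-type and 694 in the knockout library, or 10.5%, 9.30% and 7.02% of cells. Cells with at least 10 Jchain UMIs were kept apart, and 2, 4 and 2 of them also had at least 2 Cd79a UMIs. The B cell markers Ms4a1, Cd79b, Pax5, Ebf1 and Blk were each detected in the B cells of every library. T cells, with at least 2 UMIs of the Cd3 genes and fewer than 2 of Cd79a, numbered 1812, 2647 and 5036. Cells that met both definitions (47, 27 and 67) were left out of both. RNA from lung cells was unevenly present in B cells: the alveolar surfactant gene Sftpc gave 3533, 1006 and 1868 CPM (counts scaled to a fixed total of UMIs, the usual measure of level) there and was seen in 99.1%, 20.9% and 35.7% of B cells. The part of such carried-over RNA in the results was not tested.

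In B cells Igkc was the most abundant of the 10 genes in every library, followed by Ighm and Iglc2. Igkc stood at 2799 CPM in the non-irradiated, 2868 in the irradiated wild-type and 4285 in the knockout library. Ighm, the IgM heavy chain, stood at 1182 (1158 to 1207), 1629 (1584 to 1675) and 1753 (1715 to 1791) CPM. Without the knockout cell richest in Igkc, that library's Igkc level was 3659 CPM. Iglc2, a lambda light chain, stood at 652, 655 and 743 CPM. Since each transcript gives 1 UMI at its 3′ end, these levels were not divided by length. At least 80.2% of B cells in each library had a UMI of each of these 3 genes. Ighd, the IgD heavy chain, was far lower, at 103, 143 (130 to 157) and 97.6 CPM.

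The other heavy-chain genes and Jchain were near the bottom of the range in the wild-type B cells and spread out in the knockout library. Igha reached 81.3 CPM (73.3 to 89.9) in knockout B cells, against 6.76 (5.03 to 8.89) in the non-irradiated and 9.23 (6.13 to 13.3) in the irradiated wild-type library. Ighg2b, an IgG2b heavy chain, gave 2.92 (1.83 to 4.42), 4.28 (2.28 to 7.33) and 69.7 (62.3 to 77.7) CPM. In both wild-type libraries the intervals of these genes overlap, and the knockout library lies above them. For Igha this order holds with cells of at least 10 Jchain UMIs kept apart, which held 960, 3474 and 355 Igha UMIs. Over all kept cells Igha stood at 15.7, 82.1 and 11.7 CPM, lowest in the knockout library. In female-type B cells alone Igha stood at 6.93, 16.1 and 84.1 CPM and Ighg2b at 3.31, 1.24 and 79.6 CPM, in the same order of libraries. Ighg1 gave 0, 1 and 61 UMIs, Ighg2c gave 0, 0 and 19, and Ighg3 gave 18, 11 and 49. The knockout Ighg1 UMIs lay in 5 of 694 B cells, with 43 in 1 of them, and the Ighg2c UMIs in 4. The folds that follow count UMIs and do not cover the spread between cells. Against a floor of 3 UMIs in the non-irradiated B cells, Ighg1 was at least 32.9-fold and Ighg2c at least 10.2-fold higher in the knockout B cells. Against the irradiated wild-type B cells Ighg2c was at least 4.12-fold higher, and Ighg1 was 39.7-fold higher with a counting interval from 6.86 to 1594, since it rests on 1 UMI there. Jchain outside cells rich in it was low throughout, at 2.52, 1.65 and 4.08 CPM.

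**Figure D1:**
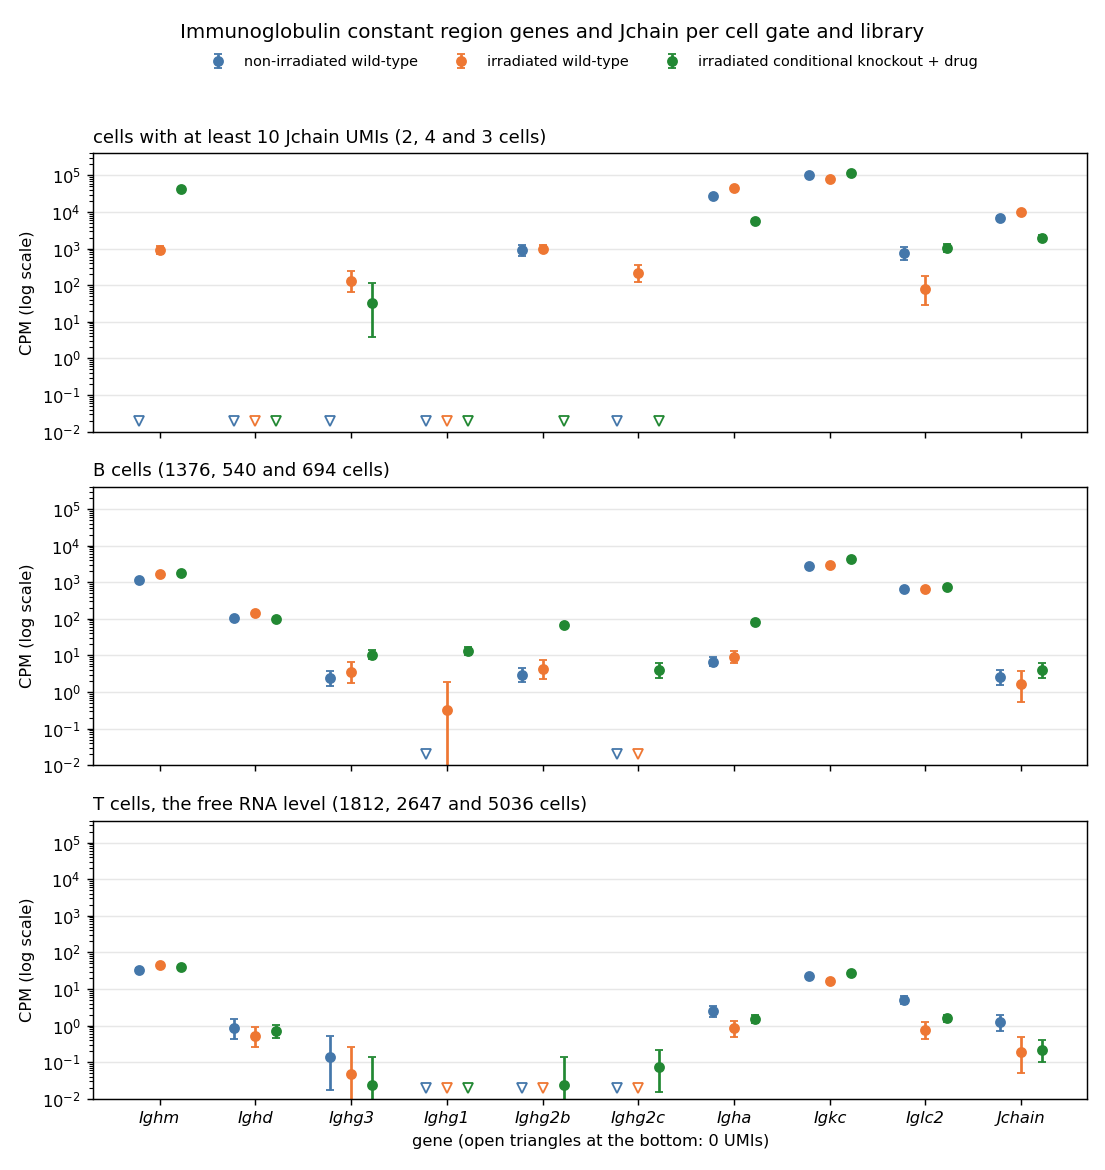
Level of the 10 genes, in CPM on a log axis, in cells with at least 10 Jchain UMIs (top), B cells (middle) and T cells (bottom), with 1 colour per library, bars for exact 95% Poisson intervals and open triangles for 0 UMIs. In B cells Igkc, Ighm and Iglc2 lead in all 3 libraries, and Igha and Ighg2b of the knockout library stand above the wild-type libraries.

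T cells do not make antibody, so the UMIs of these genes in T cells were taken as the level of free RNA. Igkc in T cells was 22.2 (19.8 to 24.9), 16.4 (14.7 to 18.2) and 27.4 (25.8 to 29.0) CPM in the non-irradiated, irradiated wild-type and knockout libraries. It was not spread evenly, since a single T cell had up to 22, 19 and 48 Igkc UMIs. Whether such cells hold free RNA or parts of B cells was not tested. B cells exceeded T cells 126-fold, 175-fold and 157-fold for Igkc. For Ighd the ratios were 120, 275 and 139. Igha in the non-irradiated library was only 2.70 times its T cell level, and Jchain 2.07 times, so these low B cell levels lie close to the background. In the knockout library Igha was 53.2 times and Jchain 18.7 times the T cell level. A single cell held 238 of the 379 Igha UMIs of knockout B cells, and without it the ratio for Igha was 19.8. Among knockout T cells, 1 cell held 22 of the 63 Igha UMIs, and it was kept in both ratios. Ighg1 was not seen in T cells of any library.

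Ighm departed from the light chains in cells other than B cells. In T cells it stood at 33.6, 45.5 and 40.1 CPM, above Igkc in each library, although B cells had more Igkc than Ighm. Ighm made up 29.7%, 36.2% and 29.0% of the Ighm and Igkc UMIs in B cells. In T cells it made up 60.2%, 73.5% and 59.4%, and in natural killer cells 83.3%, 96.3% and 79.0%. Myeloid cells had 42.4%, 84.0% and 65.7%, the second share on 21 Ighm and 4 Igkc UMIs. Endothelial cells had 33.4%, 70.7% and 62.0%, where the interval of the first (30.1 to 36.8) meets that of B cells. Mesenchymal cells had 27.0%, 53.8% and 27.7%, where the second share rests on 7 Ighm and 6 Igkc UMIs and its interval (25.1 to 80.8) holds the B cell share. Epithelial cells had 37.7%, 28.9% and 23.4%. Of the Ighm UMIs in T cells, 79.1%, 82.7% and 81.6% lay in cells with no UMI of Igkc or Iglc2. Such cells were most T cells, 1625 of 1812, 2511 of 2647 and 4671 of 5036. Ighm stood at 30.1, 40.4 and 35.6 CPM in them, below its level over all T cells. A UMI of Ighm was seen in 16.7%, 18.6% and 18.1% of T cells, and of Igkc in 9.16%, 4.68% and 6.87%. What gives the excess of Ighm was not tested.

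**Figure D2:**
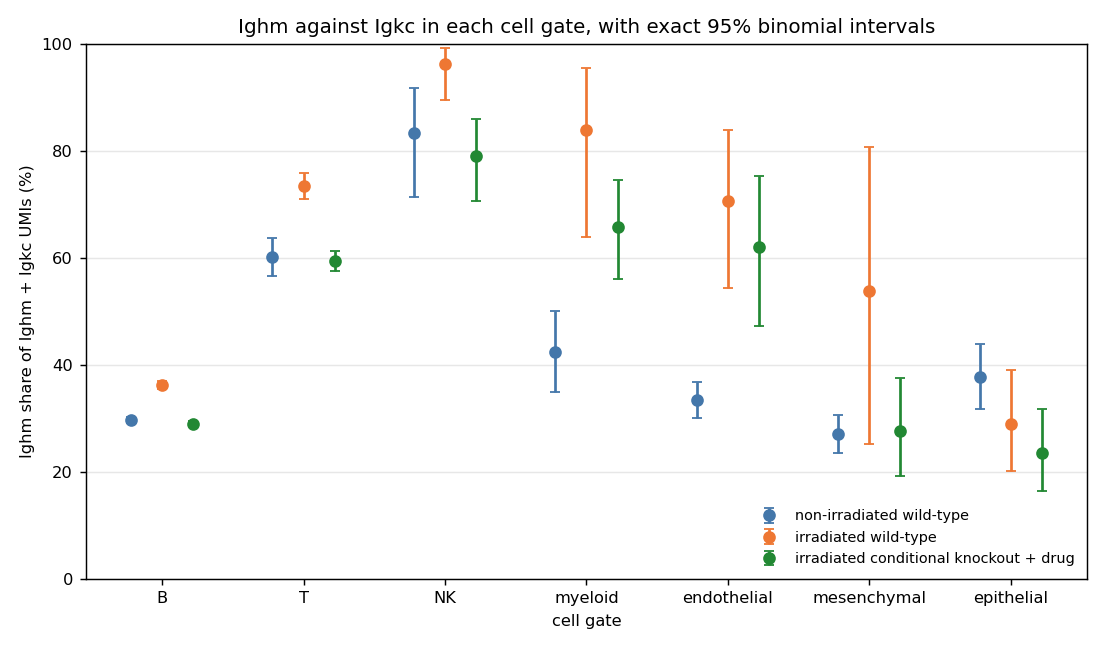
Ighm as a share of the summed Ighm and Igkc UMIs (vertical axis, percent) in each cell type (horizontal axis), with 1 colour per library and bars for exact 95% binomial intervals. T cells, natural killer cells (NK) and myeloid cells lie above B cells in all 3 libraries, and endothelial cells in both irradiated ones, each with intervals apart.

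Between the wild-type libraries, Ighm and Ighd in B cells were higher after irradiation by a like factor. For Ighm it was 1.38 (1.33 to 1.43) and for Ighd 1.38 (1.23 to 1.56). Accordingly the share of Ighd in the Ighm and Ighd UMIs did not separate them, at 8.02% (7.49 to 8.58) without and 8.05% (7.34 to 8.81) with irradiation. The knockout library had a lower share, 5.27% (4.81 to 5.77). In female-type cells the shares were 7.87%, 8.30% and 4.59%. A single knockout B cell held 1577 Ighm UMIs, 19.3% of all Ighm UMIs in its group, together with 2995 Igkc and 0 Ighd UMIs. Without that cell the knockout share was 6.45% and the level of Ighm 1421 CPM, between the wild-type libraries. There were 4 knockout B cells with more than 100 Ighm UMIs, against 1 in the irradiated wild-type and 0 in the non-irradiated library. Without all 4, a step chosen after their values were seen, the Ighd share was 7.27% (6.64 to 7.94), with an interval that overlaps those of the wild-type libraries. The median B cell had 938 CPM of Ighm in the non-irradiated, 1386 in the irradiated wild-type and 993 in the knockout library.

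Those 4 Ighm-rich knockout cells also bore some transcripts of the secretory apparatus. They were deep, at 21286 to 58992 UMIs against a median of 5903 in knockout B cells. Mzb1, a chaperone of the endoplasmic reticulum that assists IgM assembly, had 140 UMIs in the cell with most Ighm, and Xbp1, a factor that expands the secretory pathway, had 30. That cell had 2 Jchain UMIs and 5 of Cd79a. The other 3 had 400, 207 and 185 Ighm UMIs with 81, 41 and 75 of Mzb1, and none of them had a Jchain UMI. The 4 cells gave 337 of the 864 Mzb1 UMIs of knockout B cells. No UMI of the plasma cell genes Sdc1, Tnfrsf17 and Fkbp11 was seen in them, and Prdm1 had at most 1 UMI in a cell. The irradiated wild-type B cell with more than 100 Ighm UMIs had 6 of Mzb1.

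Light-chain use leaned to kappa in all libraries. The share of Iglc2 in the Igkc and Iglc2 UMIs of B cells was 18.9% (18.4 to 19.4) without irradiation. It was 18.6% (17.9 to 19.3) in the irradiated wild-type library and 14.8% (14.3 to 15.2) in the knockout library. The knockout value was 16.4% without the cell richest in Igkc, still below the intervals of both others. By cells the picture was closer: Iglc2 exceeded Igkc in 138 of 1328 cells (10.4%, 8.80 to 12.2), in 49 of 522 (9.39%, 7.03 to 12.2) and in 51 of 680 (7.50%, 5.63 to 9.74). These intervals overlap.

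Most cells did not show 1 light chain alone, although a B cell normally makes only 1. Among B cells with at least 10 light-chain UMIs (933, 388 and 564), Iglc2 made up between 10% and 50% of the UMIs in 55.8%, 56.96% and 52.3% of cells. It made up at least 90% in 1.39%, 1.55% and 0.887%. In cells led by Igkc, Iglc2 stood at 681, 668 and 754 CPM and was seen in 84.3%, 86.7% and 86.5% of them. Iglc2 in T cells stood at 5.08, 0.754 and 1.58 CPM. The source of Iglc2 in kappa-led cells was not tested.

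**Figure D3:**
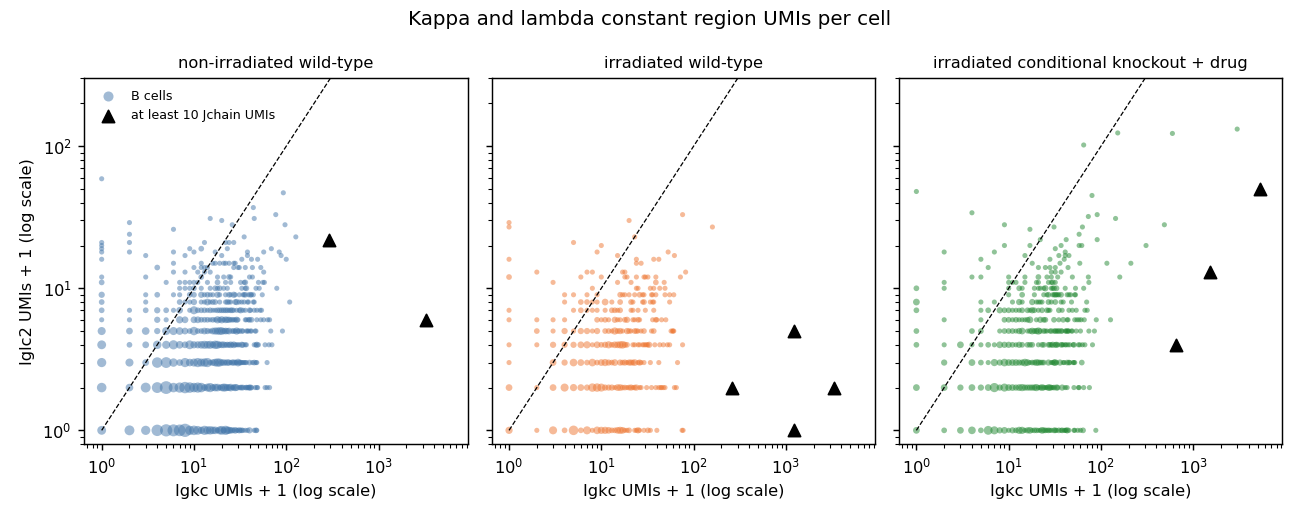
Iglc2 against Igkc UMIs of single cells, 1 added to both, on log axes, with 1 panel per library. Coloured points are B cells, sized by how many share a position, black triangles are the cells with at least 10 Jchain UMIs, and the dashed line marks equal counts. Most B cells lie below the line but above 0 Iglc2 UMIs, and the 9 triangles lie far to the kappa side.

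The count of a lambda gene can depend on its neighbours, because Iglc2 and Iglc3 are near copies. The last 120 coding bases are shown 5′ to 3′ (GENCODE, GRCm38), with capitals where Iglc3 or Iglc1 differs from Iglc2.
Iglc2: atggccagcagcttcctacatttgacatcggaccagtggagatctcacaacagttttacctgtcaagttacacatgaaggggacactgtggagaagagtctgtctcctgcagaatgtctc
Iglc3: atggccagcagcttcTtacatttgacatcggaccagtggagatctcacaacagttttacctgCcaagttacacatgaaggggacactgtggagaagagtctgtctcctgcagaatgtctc
Iglc1: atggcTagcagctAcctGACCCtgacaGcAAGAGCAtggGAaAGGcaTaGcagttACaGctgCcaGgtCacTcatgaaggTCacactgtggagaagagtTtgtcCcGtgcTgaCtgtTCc
In this stretch Iglc3 differed from Iglc2 at 2 bases and Iglc1 at 38. Over the whole coding sequence Iglc2 and Iglc3 were 96.2% identical, and they shared 106 of 428 windows of 31 bases but 0 of 368 windows of 91 bases. How reads were divided between them depends on a read length that is not given in the sources used here, so Iglc2 and Iglc3 are uncertain as separate values. Iglc3 stood at 109, 123 and 140 CPM in B cells. Iglc1, which shared no such window with Iglc2, stood at 64.3 CPM in the non-irradiated and 63.9 in the irradiated wild-type library, against 146 in the knockout library. With all 3 lambda genes summed, the lambda share was 22.8%, 22.7% and 19.4%. Ighg2b and Ighg2c were 85.6% identical in coding sequence and shared 186 of 2647 windows of 31 bases, and the other pairs of IgG genes were 74.1% to 76.2% identical.

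Among B cells with fewer than 10 Jchain UMIs, class-switched cells made up the largest share in the knockout library, with 1 library per group. Each B cell was assigned the heavy-chain gene with most UMIs, with at least 3 required. Of 1052 non-irradiated B cells so assigned, 5 (0.475%, 0.154 to 1.11) were led by an IgA or IgG gene. In the irradiated wild-type library 4 of 469 were (0.853%, 0.233 to 2.17), and in the knockout library 20 of 567 (3.53%, 2.17 to 5.40). The knockout interval lies above that of the non-irradiated library and meets that of the irradiated wild-type library at its edge, 2.17%. In female-type cells the shares were 5 of 905 (0.552%), 3 of 245 (1.22%) and 19 of 476 (3.99%). These shares do not count the cells with at least 10 Jchain UMIs. Of those that also had at least 2 Cd79a UMIs, Igha or Ighg2b led in all 2 non-irradiated and all 4 irradiated wild-type cells. Ighm led in the 2 knockout ones. Ighm led in 98.5%, 97.9% and 95.1% of assigned cells.

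The isotypes of the switched cells were IgA and IgG. The non-irradiated library had 3 cells led by Igha and 2 by Ighg2b, and the irradiated wild-type library 3 by Igha and 1 by Ighg2b. In the knockout library Ighg2b led in 11 cells, Igha in 5, Ighg1 in 2 and Ighg2c in 2. None was led by Ighg3 in any library, which allows up to 0.285%, 0.640% and 0.529% of assigned cells. The leading gene had 3 to 13 UMIs in the non-irradiated, 3 to 10 in the irradiated wild-type and 3 to 238 in the knockout cells, with medians of 7, 6.5 and 17.5. In the knockout library 14 of the 20 cells had at least 10 UMIs of it, against 1 cell in each wild-type library. The median depth of these cells was similar, at 9234, 9025 and 9565 UMIs.

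Switched cells could hold UMIs of more than 1 heavy-chain gene. An Ighm UMI was seen in 1 of 5, 0 of 4 and 4 of 20 of them, and Ighd in none. In the knockout library the richest cell had 238 Igha and 10 Ighm UMIs, with 5 of Jchain. Another had 88 Ighg2b, 13 Ighm and 486 Igkc UMIs. A cell led by Ighg1 had 43 UMIs of it beside 18 of Ighg3, with 101 of Iglc2 and 64 of Igkc. A further cell had 11 Ighg1 beside 9 Ighg2b UMIs. Ms4a1, the gene of the B cell surface protein CD20, was seen in 5 of 5, 4 of 4 and 17 of 20 switched cells. Sdc1, a surface marker of plasma cells, was seen in none, and Mzb1 in 3, 2 and 16. Fas, a death receptor carried by activated and germinal centre B cells, was seen in 4 of 5, 3 of 4 and 8 of 20. In the other assigned B cells Fas was seen in 7.49%, 4.56% and 8.30%, but those had lower median depths of 4828, 4908 and 5980 UMIs.

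**Figure D4:**
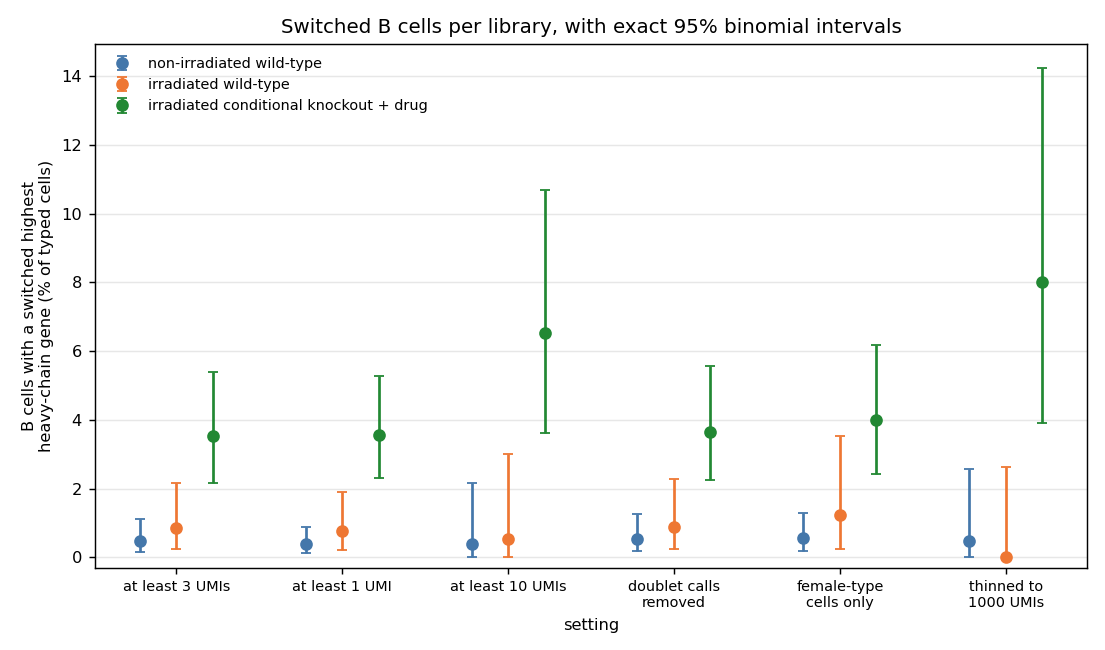
Share of B cells led by an IgA or IgG gene (vertical axis, percent of B cells assigned to a heavy-chain gene) under 6 settings (horizontal axis), with 1 colour per library and bars for exact 95% binomial intervals. The knockout library has the highest share under each setting shown, from 3.53% to 8%.

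Over all genes, few were counted as apart and higher. A gene was counted as apart where its B cell CPM, with 5 CPM added to both sides, differed at least 2-fold, with a minimum of 30 UMIs on the higher side. Between the irradiated and non-irradiated wild-type libraries only Ighm, Ighd, Igkc and Iglc2 met that minimum. None of them was apart, where 8.16% of 9305 genes were and 0.473% were higher. In both knockout comparisons all members but Ighg2c and Jchain met it. Ighg1, Ighg2b and Ighg3 did so only through their knockout counts of 61, 325 and 49 UMIs. Against the irradiated wild-type library, with 28 Igha UMIs, this held for Igha too. The numbers of members apart therefore cannot be set against each other between pairs. Nor are they a test against the shares over all genes, which are given beside them as a description. Against the non-irradiated library 4 of the members that met the minimum were apart and higher in knockout B cells. Of 9750 genes that met it, 8.59% were apart and 0.595% were apart and higher. Their log2 differences were 3.24 for Ighg2b, 2.88 for Igha, 1.85 for Ighg1 and 1.07 for Ighg3, against a median of -0.09 over all genes tested. Against the irradiated wild-type library 3 of the members that met the minimum were apart and higher, Ighg2b by 3.01, Igha by 2.60 and Ighg1 by 1.76. Of 7670 genes that met it, 2.13% were apart and 0.913% were apart and higher. These values leave out the cells with at least 10 Jchain UMIs, which held most Igha UMIs of both wild-type libraries. Single cells carried part of the differences. The top cell held 62.8% of the Igha, 70.5% of the Ighg1 and 27.1% of the Ighg2b UMIs of knockout B cells. With that cell left out, Igha (1.81 and 1.69) and Ighg2b (3.06 and 2.88) were still apart in both comparisons, while Ighg1 (0.83 in both) and Ighg3 (0.71 against the non-irradiated library) were not. Ighm differed between knockout and irradiated wild-type B cells by 0.10 on the log2 scale, and by -0.16 without its top cell.

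Cells with at least 10 Jchain UMIs were rare in every library, with 2 in the non-irradiated (0.0153% of cells, 0.00185 to 0.0552), 4 in the irradiated wild-type (0.0689%, 0.0188 to 0.176) and 3 in the knockout library (0.0303%, 0.00626 to 0.0887). These intervals overlap. The cells just inside the threshold had 16 and 18 Jchain UMIs, and just outside lay 2 knockout cells with 9 and 5. Immunoglobulin genes, variable segments included, gave between 1.91% and 40.9% of the UMIs of these 9 cells. Although so few, they held 74.1%, 98.2% and 40.9% of all Igha UMIs of the libraries, and 11.9%, 37.2% and 23.3% of Igkc. Their 66.8%, 98.3% and 68.0% of Jchain follow in part from the choice of cells by Jchain itself. A single cell gave 59.0%, 54.3% and 30.9% of the Jchain UMIs of each library.

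Igha led in 6 of the 9 cells, Ighm in 2 and Ighg2b in 1. Both non-irradiated cells were led by Igha. The first had 841 Igha, 3238 Igkc and 219 Jchain UMIs, with 32 of Ighg2b. The second had 119 Igha, 292 Igkc and 29 Jchain UMIs, and 7 UMIs of Ms4a1. The irradiated wild-type library had the cell with most Igha, with 1984 UMIs beside 48 Ighm, 3364 Igkc and 419 Jchain UMIs. Its next cells had 746 and 744 Igha UMIs, 1217 and 1218 of Igkc and 167 and 154 of Jchain. The last of its cells was led by Ighg2b with 75 UMIs, beside 21 of Ighm, 16 of Ighg2c and 10 of Ighg3, and had 18 of Jchain, 45 of Cd79a and 11 of Ms4a1. In the knockout library the first cell had 350 Igha, 656 Igkc and 55 Jchain UMIs. The others were led by Ighm, with 1970 Ighm, 5269 Igkc and 50 Jchain UMIs in the second and 661 Ighm, 1507 Igkc and 16 Jchain UMIs in the third. The Ighm-led cells with this much Jchain thus occurred in the knockout library, in 2 of 3 cells against 0 of 2 and 0 of 4. Numbers this small carry no comparison.

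**Figure D5:**
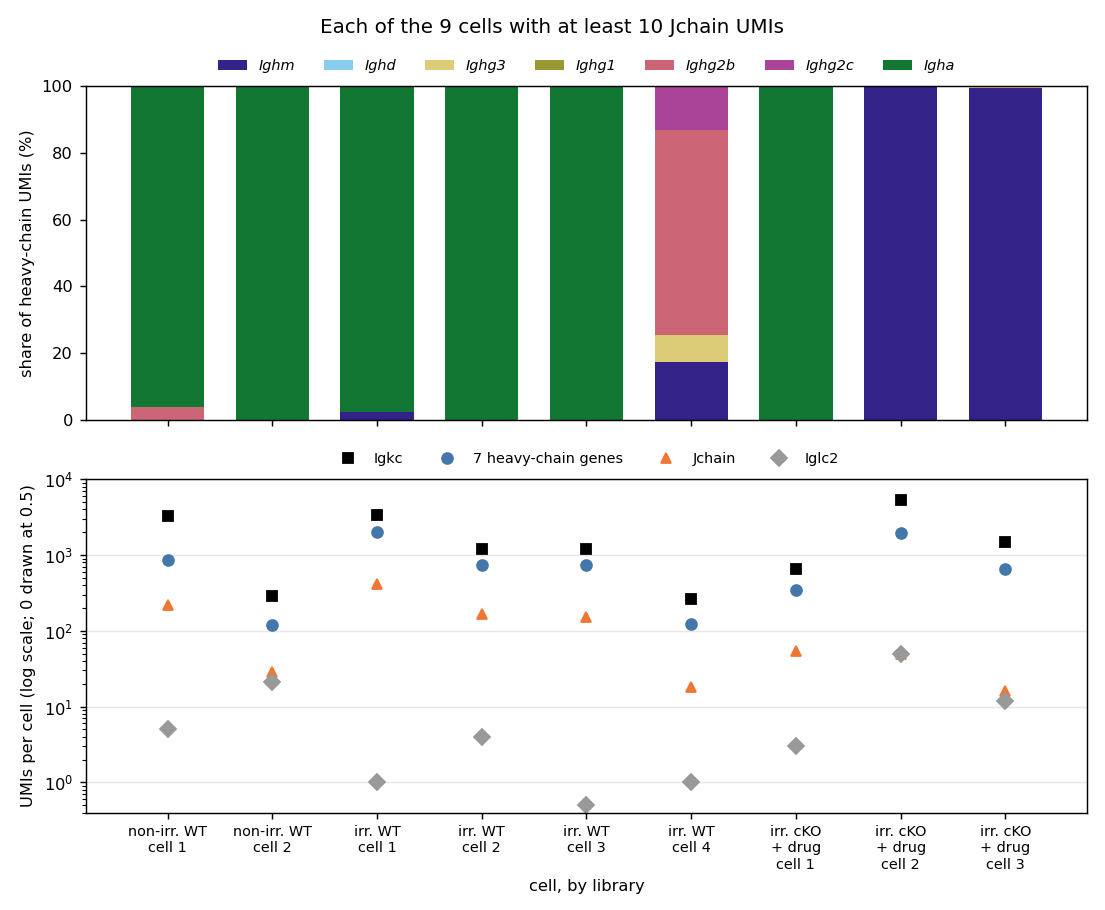
The 9 cells with at least 10 Jchain UMIs, 1 column per cell. The upper panel gives each heavy-chain gene as a percent of the heavy-chain UMIs, and the lower panel the UMIs of Igkc, the 7 heavy-chain genes together, Jchain and Iglc2 on a log axis, with 0 drawn at 0.5. Igha leads in 6 cells, Ighm in 2 knockout cells and Ighg2b in 1 irradiated wild-type cell.

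The proportion of Jchain to heavy chain varied among cells, and the cells were chosen by Jchain itself. The 6 Igha-led cells had between 157 and 251 Jchain UMIs per 1000 heavy-chain UMIs, and the 2 Ighm-led cells had 24.1 and 25.3, although both heavy chains carry the cysteine codon shown above. The Ighg2b-led cell had 148, with an end that lacks the codon. The Igha-led knockout B cell below the threshold, with 238 Igha and 5 Jchain UMIs, had 20.2, lower than the Ighm-led cells, and the other cell below it, with 21 Igha and 9 Jchain UMIs, had 429. Against Iglc1, Iglc2 and Iglc3 together, Igkc gave at least 98.0% of the light-chain UMIs in 7 of the 9 cells, 85.1% in the Ighg2b-led cell and 82.0% in the second non-irradiated cell. No Ighd, Ighg1 or Ighe UMI was found in any of them. Mzb1 (12 to 151 UMIs) and Xbp1 (2 to 31) were seen in all 9, as were Cd79a and Cd79b. Prdm1, the repressor that drives plasma cell differentiation, was seen in 7, Irf4 in 7, Sdc1 in 6, Derl3 in 6 and Tnfrsf17, the BCMA receptor, in 5. Of the 5 T cell markers none was seen in the cells of the wild-type libraries, and Trac was seen in 1 knockout cell. By Scrublet, a doublet caller, 2 of the irradiated wild-type and 1 of the knockout cells were marked.

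A pair of irradiated wild-type cells were alike beyond their isotype. The cells with 746 and 744 Igha UMIs both had Ighv1-9 as leading heavy variable segment, on only 8 and 2 UMIs. Both had Igkv6-23 as leading light segment, on 3 and 12 UMIs and tied with another in the first. Their counts differed by a chi-square of 1.80 per gene, the lowest of the 36 pairs among the 9 cells, where the next was 3.57 and the median 10.6. Their barcodes differed at 13 positions. They also had 12 and 20 UMIs of Mki67, a gene of dividing cells. None of the 4 irradiated wild-type cells was of female type, so female-type cells alone give a share of 0 in that library.

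Other genes of the B cell programme were listed by role, and a list gene with at least 20 UMIs over both libraries was counted when it differed at least 1.5-fold. Over all genes with that minimum, 3.49% were higher and 12.8% lower by that measure between irradiated and non-irradiated wild-type B cells. The figures were 1.67% and 13.7% between knockout and non-irradiated cells, and 2.66% and 7.11% between knockout and irradiated wild-type cells. Of 13 B cell identity genes, 0 were apart in both comparisons with the non-irradiated library, with median log2 differences of 0.35 for irradiated wild-type and 0.22 for knockout cells, where all genes had medians of -0.01 and -0.08. Pax5, the factor that maintains B cell identity, was lower in knockout than in irradiated wild-type B cells, at 82.6 against 141 CPM. Of the antibody secretion genes, Irf4 (651 against 425 CPM) and Edem1 (61.6 against 36.6) were higher in irradiated than in non-irradiated wild-type B cells, 2 of 16 genes with a median of 0.04. In the knockout library 2 of 17 were higher than in the non-irradiated library (median 0.11), Mzb1 at 185 against 75.7 CPM and Derl3 at 4.504 against 0.928. Against the irradiated wild-type library Mzb1 (81.7 CPM there) and Derl3 were higher and Prdm1 lower, at 6.22 against 12.9 CPM, with a median of 0.11 over 16 genes. Without the 4 knockout cells rich in Ighm, Mzb1 stood at 116 CPM there and was no longer past the fold against the irradiated wild-type library.

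Among genes of germinal centres and switching, 5 to 7 could be measured. Past the fold were 1 lower gene of 5 after irradiation, 1 higher of 7 in the knockout library against the non-irradiated one, and 2 higher of 5 against the irradiated wild-type one. Mki67 stood at 10.3 CPM in knockout B cells against 1.99 in non-irradiated and 1.65 in irradiated wild-type cells. The knockout level rests on 9 of 694 cells, with 30 of 48 UMIs in 1 of them, and the others had Mki67 in 10 of 1376 and 5 of 540 cells. Fas stood at 20.02, 10.9 and 23.6 CPM in the non-irradiated, irradiated wild-type and knockout libraries. Among 10 to 12 memory and innate-like genes, Zbtb32, a regulator found in memory B cells, stood at 8.15 CPM in the knockout library against 1.33 and 0.330 in the non-irradiated and irradiated wild-type libraries. Zbtb20, a factor that supports long-lived plasma cells, was lower, at 81.3 against 187 and 135 CPM. In T cells Zbtb20 stood at 130, 74.1 and 68.2 CPM in the non-irradiated, irradiated wild-type and knockout libraries, and in mesenchymal cells between 936 and 1062 CPM, and the part of such RNA in the B cell values was not tested. Cd80, a costimulatory ligand, stood at 2.12, 8.24 and 6.01 CPM. Past the fold were 2 higher genes of 10 after irradiation, and 3 higher and 1 lower of 12, then 1 higher and 1 lower of 12, in the knockout comparisons. Of 9 antibody receptor genes 0 were apart between the wild-type libraries, and 1 of 10 was higher in the knockout library against each of them: Fcgr3, a low-affinity IgG receptor, at 11.8 against 3.05 and 4.28 CPM. Of 5 genes for signals to B cells 3 were lower in each irradiated library than in the non-irradiated one, led by the chemokine gene Cxcl12 at 52.8, 2.31 and 7.29 CPM. Cxcl12 moved alike in T cells, at 41.1, 2.36 and 10.8 CPM. These lists hold few genes past the fold, and nothing particular to a list is drawn from them.

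Over 24 profiles, made of the cell types of each library, the genes most alike to Jchain outside the immunoglobulin genes were ranked by Pearson's r of log2 levels, as a description. They were Ccr10 (0.966), a chemokine receptor of IgA plasma cells, then Eaf2 (0.943), Cdc25b (0.942), Tg (0.928) and Recql5 (0.913). For Ighd they were Gm31243 (0.996), Crisp3 (0.989), Cacna1i (0.982), Cr2 (0.982), which encodes complement receptors of B cells, and Mybpc2 (0.979). The profiles share libraries and depth, and those of the cells rich in Jchain rest on 2 to 4 cells each. Those cells were chosen by Jchain itself, so any gene seen mainly in them ranks high for Jchain through that choice. The ranking for Jchain therefore shows no link beyond these few cells.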

How the data were processed

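Lung cells of 3 libraries were analysed from the deposited matrices of UMI counts, which the authors made per gene and cell barcode and did not normalize. The build is mm10 per the submitters' processing notes, a software version of 3.1.0 stands in the file headers without a name, and the aligner is not given in the sources used here. Every kept barcode had at least 250 genes and at most 15% mitochondrial UMIs. UMIs were summed over the cells of a gate and given as CPM of all UMIs. Shares have Clopper-Pearson and levels exact Poisson 95% intervals, and the floor for 0 is 3 counts. Named genes are the 10 members, up to 3 list genes per pair of libraries with the largest ratio among those with at least 20 UMIs, and the 5 most alike to Jchain and to Ighd. The members, gates and lists were chosen with earlier results of these data known. Doublets were kept, since a run of Scrublet in scanpy 1.11.5 was used as an alternative. It marked the top 0.8% per 1000 barcodes (1371, 270 and 782 cells), where its automatic threshold marked 408, 3 and 0. The count of genes apart was tested on simulated data: in each pair, 100 of 100 genes changed 3-fold were found and 0 of 100 changed 1.5-fold. The changed genes were drawn from abundant ones and carried counting error only. The simulation therefore does not cover genes that are low or have most UMIs in 1 cell, such as Ighg1. Calculations used python 3.11.15, numpy 2.4.6, scipy 1.17.1 and pandas 2.3.3. Sequences, positions and gene models are from the GENCODE annotation of GRCm38, the assembly of mm10. The alternatives were other gates and minimums, Scrublet, female-type cells, equal cell weights, thinning, other scalings and omission of top cells.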

Additional observations from a re-analysis of the deposited data

How the results depend on the processing

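No group had a replicate, so no library could be left out and no value has an error beyond counting. No paired analysis was possible because each group has 1 library. Of the recomputed values that answer a comparison, 78 moved by less than their counting interval (counts of genes, 1.5-fold), and 29 moved further. Among log2 ratios of single genes, none of them past 2-fold as reported, 5 changed sign: in B cells Ighm between the knockout and irradiated wild-type libraries (0.10 to -0.16 without its top cell), Ighg2b between the wild-type libraries (0.23 to -0.41 in female-type cells), and, under median-of-ratios scaling, Ighd between the knockout and non-irradiated libraries (-0.08 to 0.03) and Iglc2 between the wild-type libraries (0.01 to -0.02). In cells with at least 10 Jchain UMIs it was Igkc between the wild-type libraries (-0.30 to 1.68 without the top cell of each). The switched share, which never counted cells with at least 10 Jchain UMIs, was highest in the knockout library under every alternative run. With at least 10 UMIs of the leading gene it was 6.51% there, and with cells thinned to 1000 UMIs it was 8%, with 0% in the irradiated wild-type and 0.467% in the non-irradiated library. The Ighd share with equal cell weights was 9.76%, 9.94% and 8.95% (non-irradiated, irradiated wild-type, knockout), and in knockout B cells 4.59% in female-type cells and 6.45% without the cell richest in Ighm. The Iglc2 share was 22.8%, 22.7% and 19.4% with Iglc1 to Iglc3 summed, 22.6%, 21.98% and 19.6% with equal weights, and 16.4% in the knockout library without the cell richest in Igkc. Leaving out those top cells was chosen after seeing the data. The share of cells with at least 10 Jchain UMIs in the irradiated wild-type library was 0% in female-type cells, where the Igha share has no value. The Igha share was 100% there with a minimum of 20 Jchain UMIs, and 0% in the knockout library after removal of Scrublet calls. Igkc in T cells was 16.6 and 23.3 CPM in the non-irradiated and knockout libraries with no Cd79a UMI allowed, 17.4 CPM in the non-irradiated library after removal of Scrublet calls, and 14.0 CPM in the irradiated wild-type library with equal weights. The counts of genes apart were 759 (irradiated wild-type against non-irradiated), 838 (knockout against non-irradiated) and 163 (knockout against irradiated wild-type). With 20 CPM added they were 228, 269 and 52, with at least 100 UMIs the last was 76, and over genes with a B cell CPM at least 5 times the T cell CPM, added after seeing the data, they were 34 of 316, 28 of 310 and 63 of 368, the last being 17.1% of genes against 2.13%. The cause of these moves was not tested. Median-of-ratios scaling moved the median of all genes between the knockout and irradiated wild-type B cells from -0.10 to 0.02, and all 7 calls of the 10 genes stood under it.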

Other observations

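The receptors and carriers that antibodies meet in the lung lay in other cell types. Pigr, the receptor that carries polymeric IgA and IgM across epithelia, stood at 39.2 (33.0 to 46.3) CPM in epithelial cells of the non-irradiated library, 125 (109 to 142) in those of the irradiated wild-type and 87.7 (75.8 to 101) in those of the knockout library, which had 267, 109 and 130 such cells. The intervals do not overlap, but they cover counting error only. Fcgrt, the neonatal Fc receptor that protects IgG from breakdown, stood at 153, 128 and 149 CPM in mesenchymal cells. In myeloid cells (344, 114 and 225) Fcer1g, the signalling chain of activating Fc receptors, stood at 2209, 895 and 1638 CPM. Fcgr1, the high-affinity IgG receptor, stood at 8.61, 16.3 and 34.5 CPM there, and Fcgr2b, the inhibitory one, at 151, 64.0 and 43.1 CPM. Fcgr2b in B cells stood at 23.5, 31.6 and 30.2 CPM. The makeup of the epithelial and myeloid gates was not resolved, so in both a change of level and a change of cell kinds cannot be told apart.

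Genes for signals to B and plasma cells were spread over several cell types. Ifng, the gene of interferon gamma, was highest in natural killer cells, at 874, 538 and 623 CPM in the non-irradiated, irradiated wild-type and knockout libraries. Tgfb1 stood at 398, 392 and 405 CPM in those cells and at 328, 335 and 278 in B cells, against 45.5, 63.9 and 59.3 in mesenchymal cells. Tnfsf13b, the survival factor BAFF, stood at 137, 130 and 142 CPM in mesenchymal cells, again in the order of control, irradiated and knockout. Cxcl12, a chemokine that retains plasma cells, stood at 668, 186 and 599 CPM in endothelial cells. Cxcl13, which draws B cells into follicles, stood at 19.8, 46.0 and 26.9 CPM in mesenchymal cells, in 48 of 3256, 6 of 401 and 18 of 866 cells.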
